A study of Cavia porcellus with 12 samples.

Results

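Mitochondrial fatty acid oxidation and ketone body metabolism were represented by 31 genes: the acyl-CoA synthetases, the carnitine shuttle, the dehydrogenases and later enzymes of the β-oxidation spiral, its electron acceptors and the enzymes of ketone bodies. The genes were looked up by their human symbol in the deposited table of 11896 genes, and all 31 were found. RNA of the left lateral liver lobe was sequenced in 6 guinea pigs with NASH and 6 controls. All animals were female Dunkin Hartley guinea pigs, received at an age of 10 weeks, that then ate a high-fat diet with added sucrose and cholesterol (NASH) or chow (Control) for 25 weeks. The animals with NASH had been selected for bridging fibrosis, and the controls had been drawn at random from chow-fed animals without NASH and fibrosis. The livers were not perfused, and every animal gave a library of its own.

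Fatty acids enter this pathway as acyl-CoA, which the long-chain acyl-CoA synthetases (ACSL) form and the carnitine shuttle carries across the inner mitochondrial membrane. Inside, acyl-CoA dehydrogenases that differ in their preferred chain length, a hydratase, a hydroxyacyl-CoA dehydrogenase and a thiolase shorten the chain and release acetyl-CoA, while the electron transfer flavoprotein (ETF) passes electrons to the respiratory chain. The liver turns surplus acetyl-CoA into ketone bodies during fasting and exports them, since hepatocytes hold very little of the enzyme that activates ketone bodies for use.

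The total counts of an animal were between 16980274 and 33091460. Levels are given in CPM, counts relative to library size after scaling by edgeR's TMM method. The TMM factors, which correct for library composition, ranged from 0.804 to 0.875 in controls and from 1.12 to 1.24 in NASH. DEGs were called in edgeR's quasi-likelihood test at a p-value under 0.05 after Benjamini–Hochberg adjustment over all genes tested. Markers of hepatocytes, of which 7 of 10 listed genes were in the table (*TF*, *HNF4A* and *APOC3* were not), added up to between 102000 and 124000 CPM in controls and to between 43400 and 66300 CPM in NASH. Those of cholangiocytes (5 of 6 genes) added up to between 73.2 and 115 CPM in controls and between 302 and 539 CPM in NASH, and those of stellate cells and fibroblasts (6 of 6) to between 511 and 641 CPM and between 1160 and 2040 CPM. None of the listed markers in the table was at 0 in all animals of a group. The erythroid markers (3 of 5) were at 57 to 171 CPM in controls and at 426 to 4520 CPM in NASH, where animals 41 and 65 stood apart. Macrophage markers (4 of 6) added up to 312 to 385 CPM in controls and 395 to 466 CPM in NASH, T cell markers (5 of 5) to 53.1 to 110 CPM and 32 to 59.3 CPM, and endothelial markers (5 of 5) to 345 to 483 CPM and 436 to 661 CPM. Of the markers past the threshold, the lowest and highest log2 fold changes were −2.20 (*TTR*) and −0.52 (*FGB*) in the hepatocyte list, 1.64 (*KRT19*) and 3.22 (*EPCAM*) in the cholangiocyte list, 0.62 (*DCN*) and 4.21 (*COL1A1*) in the stellate cell list, and 3.79 (*HBA1*) and 6.38 (*SLC4A1*) in the erythroid list. They were −1.27 (*MARCO*) and 0.69 (*CD68*) in the macrophage list, −1.06 (*CD3E*) and 1.29 (*CD8A*) in the T cell list, and 0.45 (*STAB2*) and 1.46 (*VWF*) in the endothelial list. In the T cell list 1 gene was lower, 1 higher and 3 neither. Most of its sum came from *CD3E*, with a mean of 69 CPM in controls and 33 CPM in NASH. In the macrophage list 1 gene was lower, 1 higher and 2 neither, where 26% of all genes were lower and 27.9% higher. Fewer hepatocytes and less RNA per hepatocyte cannot be told apart in such tissue, and the part of these shifts in the results on fatty acid oxidation was not tested.

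Of the 31 genes, 20 were lower in guinea pigs with NASH, where 26% of all genes tested were lower, and 5 were higher, where 27.9% of all genes were higher. The remaining 6 did not pass the threshold. The median log2 fold change of the 31 genes was −0.73, against 0 over all genes, and 24 of them lay below the median of all genes. The 7 hepatocyte markers found had a median of −0.83, and 6 of them (85.7%) were lower. The pathway genes that fell covered the auxiliary enzymes, ETF and most of the spiral. Those that rose were *ACSL4*, *ACSL5*, *ACADL*, *BDH1* and *OXCT1*. The groups did not overlap in 19 lower genes (as in 15.3% of all genes) and in 2 higher genes, *BDH1* and *OXCT1* (as in 18.4% of all genes). A fall of more than 2-fold was seen in 8 of the 31 genes, as in 5.35% of all genes. With DESeq2 the counts were again 20 lower and 5 higher (27.3% and 28.9% of all genes), and in edgeR's test for a change beyond 0.5 on the log2 scale they were 17 lower and 1 higher (8.07% and 14.3% of all genes). Without NASH animals 41 and 65 together, a choice made after seeing the data, 20 genes were lower and 5 higher (24.1% and 25.3% of all genes).

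The choice of scaling moved these values as a block. With library size alone, the log2 fold change had a median of 0.48 over all genes and of −0.26 over the 31 genes, with 17 lower (7.66% of all genes) and 9 higher (63.9% of all genes), and 24 genes again lay below the median of all genes. *HADHB*, *MLYCD* and *ETFDH* were then no longer DEGs, and *CPT2*, *ACADVL*, *ACAD9* and *HADHA* became higher. Fold changes below are those with TMM and can be read as changes relative to the bulk of genes.

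**Figure D1:**
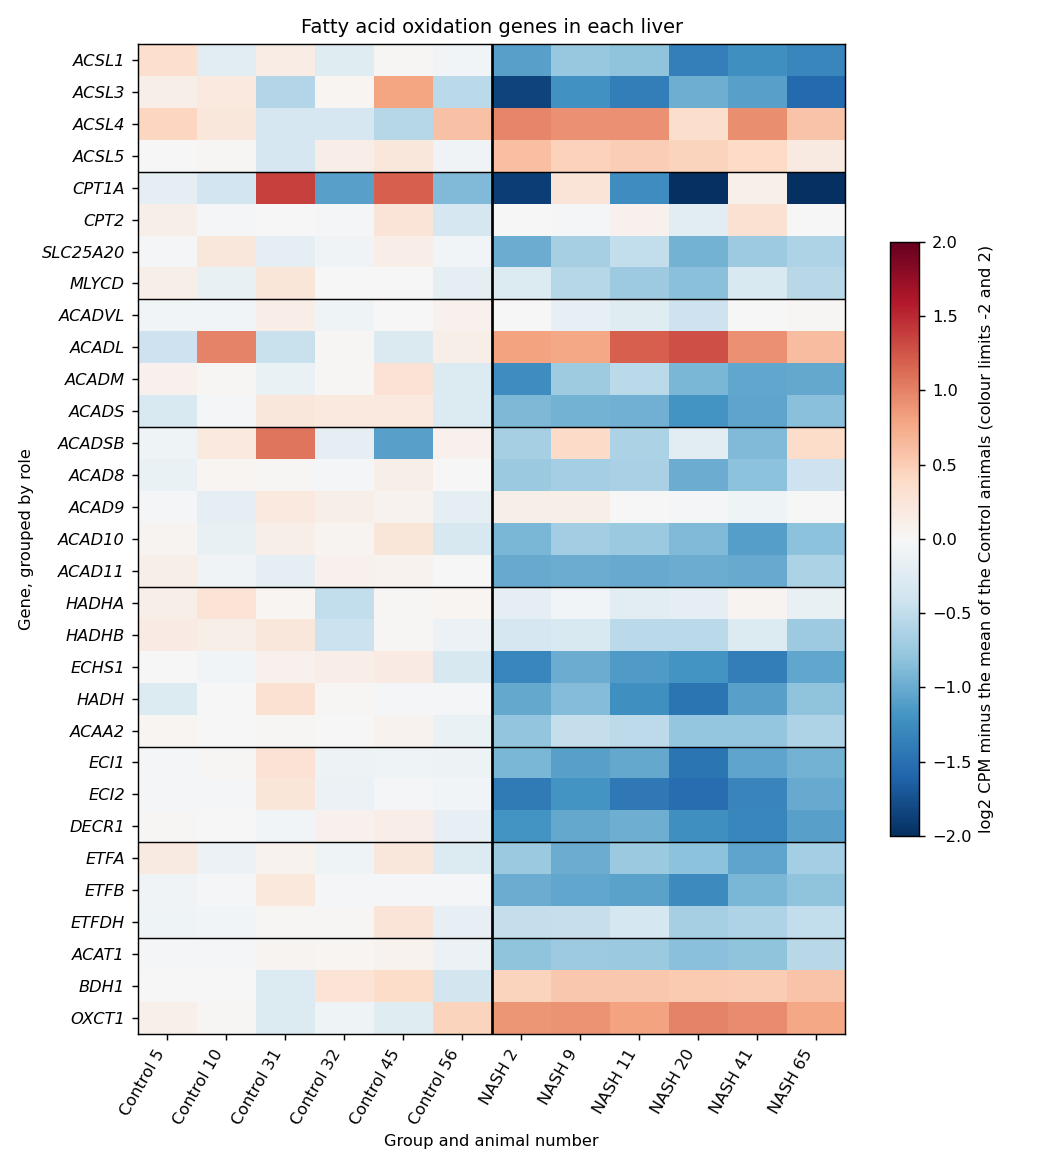
Level of each of the 31 genes (rows, grouped by role with black lines between roles) in each of the 12 livers (columns), as log2 CPM minus the mean of the 6 controls, with red for higher and blue for lower and the colours ending at −2 and 2. The blue block covers 20 genes in NASH, against which *ACSL4*, *ACSL5*, *ACADL*, *BDH1* and *OXCT1* stand out in red, while *CPT1A* and *ACADSB* differ between animals of the same group.

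The 4 long-chain acyl-CoA synthetases split into a pair that fell and a pair that rose. *ACSL1*, the main hepatic isoform, which serves oxidation as well as triglyceride synthesis, lay between 2920 and 4420 CPM in controls (median 3440) and between 1350 and 2050 CPM in NASH (median 1570). The groups were well apart, and *ACSL1* fell by 1.09 on the log2 scale (SE 0.14, adjusted p = 2.99e-05 from edgeR). *ACSL3*, an isoform of the endoplasmic reticulum and of lipid droplets, was at 12.2 to 31.9 CPM in controls (median 19.4) and at 5.03 to 9.26 CPM in NASH (median 7.43). It fell by 1.41 on the log2 scale (SE 0.23, adjusted p = 0.000247 from edgeR), although its controls varied, with a coefficient of variation (CV) of 37.1%.

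*ACSL4*, which prefers arachidonic acid and other polyunsaturated fatty acids, ranged from 20.9 to 47.1 CPM in controls (median 30.6) and from 39.9 to 61.1 CPM in NASH (median 58.9). Its log2 fold change was 0.73 (SE 0.20, adjusted p = 0.00783 from edgeR), with overlap, since NASH animals 20 and 65 (39.9 and 46.5 CPM) lay under the highest control. *ACSL5*, an isoform found at mitochondria and the endoplasmic reticulum, was at 118 to 174 CPM in controls (median 149) and at 168 to 224 CPM in NASH (median 202). It rose by 0.42 on the log2 scale (SE 0.10, adjusted p = 0.00229 from edgeR), and the groups overlapped only through NASH animal 65 and control animal 45.

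**Figure D2:**
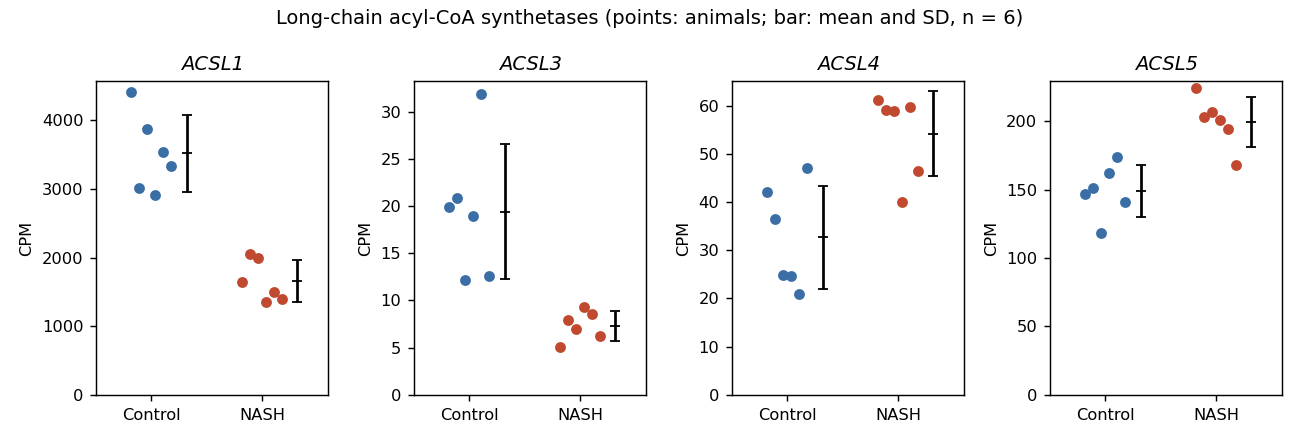
CPM of the 4 long-chain acyl-CoA synthetases in each animal (points, 6 controls and 6 NASH), with the mean and SD of each group as a bar and the axis of each panel starting at 0. *ACSL1* and *ACSL3* are lower in NASH without overlap, and *ACSL4* and *ACSL5* are higher with overlap of a few animals.

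A ratio between 2 genes of the same animal is nearly free of that animal's scaling factor, so it was used to ask whether neighbouring enzymes changed by different amounts. In all, 22 pairs of the same or a neighbouring step were compared with two-sided exact permutation tests over the 12 animals, with adjustment over the 22 pairs. Many pairs share a gene and are not independent. The ratio differed between the groups in 11 pairs. The smallest p-value that 6 animals against 6 allow is 0.00216, which corresponds to an adjusted value of 0.00595 here. Relative to *ACSL1*, *ACSL4* was 3.65-fold higher in NASH (log2 ratio −4.93 ± 0.20 against −6.80 ± 0.49 in controls, SD, n = 6 each, exact permutation test, adjusted p = 0.00595). Relative to *ACSL1*, *ACSL5* was 2.87-fold higher (log2 difference 1.52, adjusted p = 0.00595 by the same exact test). The groups did not overlap in either ratio. The ratio of *ACSL3* to *ACSL1* differed by −0.25 on the log2 scale, less than the spread between controls (SD 0.58, exact permutation test, adjusted p = 0.484).

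**Figure D3:**
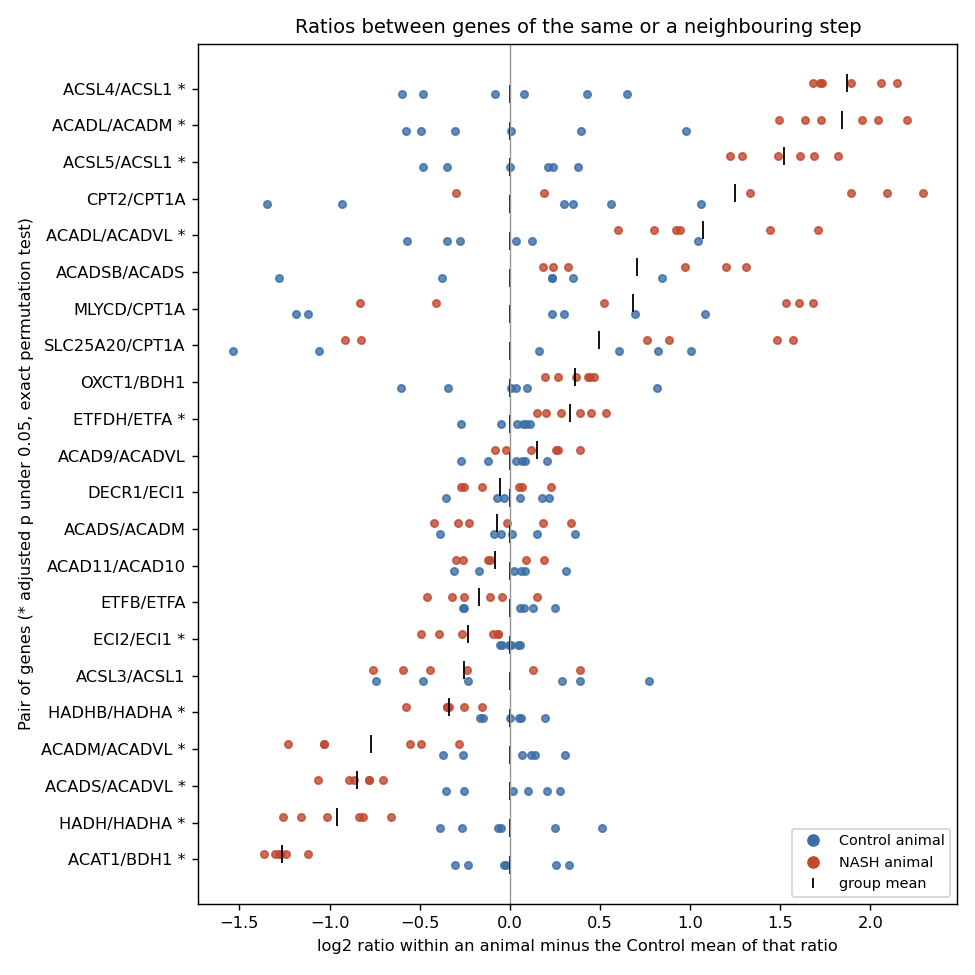
Ratio between 2 genes within each animal for the 22 pairs, on the log2 scale and relative to the mean of the controls, for controls (blue points) and NASH (red points), with black ticks for group means and an asterisk where the adjusted p-value of the exact permutation test was under 0.05. By their NASH means, the ratios of *ACSL4* and *ACSL5* to *ACSL1* and of *ACADL* to *ACADM* lie farthest to the right and that of *ACAT1* to *BDH1* farthest to the left, while single animals spread widely in the ratios to *CPT1A*.

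In the carnitine shuttle, the carrier fell, and *CPT1A* and *CPT2* did not pass the threshold. *SLC25A20*, the carrier that exchanges acylcarnitine for carnitine across the inner membrane, was at 295 to 391 CPM in controls (median 324) and at 167 to 239 CPM in NASH (median 207). All animals with NASH were below all controls, and the gene fell by 0.73 on the log2 scale (SE 0.10, adjusted p = 5.93e-05 from edgeR). *MLYCD*, the enzyme that removes malonyl-CoA, the inhibitor of carnitine palmitoyltransferase 1, was at 28.3 to 38.5 CPM in controls and at 18.1 to 26.8 CPM in NASH. It fell by 0.54 (SE 0.11, adjusted p = 0.00113 from edgeR), and with library size alone its value was −0.06 (adjusted p = 0.64 from edgeR).

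*CPT1A*, which forms acylcarnitine at the outer membrane and sets the rate of entry, varied more between animals than any other of the 31 genes, with a CV of 73.9% in controls and 80.7% in NASH. Controls 31 and 45 were at 240 and 213 CPM, and the other controls between 44.3 and 82 CPM. Likewise NASH animals 9 and 41 were at 112 and 100 CPM, and the other animals with NASH between 16.2 and 39.5 CPM. Each group thus held a pair of animals with a level above the rest. The log2 fold change was −1.15 with a 95% confidence interval from −2.42 to 0.11 (adjusted p = 0.114 from edgeR), so a fall as large as that of any other of the 31 genes and no change are both within the interval.

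*CPT2*, which returns the acyl group to CoA on the inner side, was at 61.3 to 92.2 CPM in controls and at 65.4 to 94.5 CPM in NASH. Its log2 fold change was 0.02 with a confidence interval from −0.20 to 0.24 (adjusted p = 0.879 from edgeR), and with library size alone it was 0.50 (adjusted p = 0.00063 from edgeR). The ratio of *CPT2* to *CPT1A* differed by 1.25 on the log2 scale, with SDs of 0.93 in controls and 1.07 in NASH (exact permutation test, adjusted p = 0.103). Without NASH animal 9 this difference was 1.56 and the adjusted p-value of the exact test 0.0437. With each animal left out in turn, that adjusted p-value lay between 0.0437 and 0.202.

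The straight-chain acyl-CoA dehydrogenases, which start each turn of the spiral, did not change together. *ACADM*, for medium chains, was at 600 to 893 CPM in controls (median 743) and at 308 to 503 CPM in NASH (median 374), a fall of 0.90 on the log2 scale (SE 0.13, adjusted p = 6.58e-05 from edgeR). *ACADS*, for short chains, was at 100 to 146 CPM in controls (median 132) and at 54 to 69.5 CPM in NASH (median 64.5). Its level in NASH was 50.1% of that in controls (log2 fold change −1.0, SE 0.11, adjusted p = 8.1e-06 from edgeR). No animal with NASH reached the lowest control in *ACADM* or *ACADS*.

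*ACADVL*, the enzyme for very long and long chains at the inner membrane, was at 183 to 212 CPM in controls and at 145 to 197 CPM in NASH. The groups overlapped, and its log2 fold change was −0.13 with a confidence interval from −0.31 to 0.05 (adjusted p = 0.202 from edgeR). With library size alone the value was 0.34 (adjusted p = 0.0039 from edgeR). Relative to *ACADVL*, *ACADM* was lower by 0.77 and *ACADS* by 0.85 on the log2 scale in NASH (exact permutation tests, adjusted p = 0.00952 and 0.00595). The fall of the medium- and short-chain enzymes was therefore larger than the difference seen in *ACADVL*, whereas the ratio of *ACADS* to *ACADM* differed by −0.07, with SDs of 0.25 and 0.29 (exact permutation test, adjusted p = 0.645).

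*ACADL*, the long-chain dehydrogenase, was the only gene of this group that rose. It had few counts, between 59 and 446 per animal, and lay at 4.14 to 11.3 CPM in controls (median 5.2) and at 8.72 to 13.9 CPM in NASH (median 10.3). Control animal 10, at 11.3 CPM, was inside the range of NASH, and the other controls were at most at 6.13 CPM. The log2 fold change was 0.86 (SE 0.24, adjusted p = 0.00777 from edgeR), and between 0.77 and 1.14 with each animal left out in turn. Relative to *ACADM*, *ACADL* was 3.58-fold higher in NASH without overlap (exact permutation test, adjusted p = 0.00595), and relative to *ACADVL* it was 2.1-fold higher with overlap (exact permutation test, adjusted p = 0.0216).

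Of the other acyl-CoA dehydrogenases, 3 of 5 fell and none rose, where 26% of all genes were lower and 27.9% higher. *ACAD11* and *ACAD10*, which act on hydroxylated and less common acyl-CoAs, fell by 0.94 (SE 0.08, adjusted p = 1.67e-06 from edgeR) and 0.87 (SE 0.10, adjusted p = 1.18e-05 from edgeR) on the log2 scale. *ACAD11* was at 157 to 194 CPM in controls, while NASH animal 65 was at 116 CPM and the other animals with NASH were between 88.6 and 89.6 CPM. *ACAD8*, the isobutyryl-CoA dehydrogenase of valine breakdown, was at 114 to 134 CPM in controls and at 62.5 to 93 CPM in NASH, a fall of 0.71 (SE 0.09, adjusted p = 2.11e-05 from edgeR). The groups did not overlap in any of these 3 genes, where 15.3% of all genes were lower without overlap.

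*ACAD9*, which is needed for the assembly of respiratory complex I, was at 33.1 to 43.4 CPM in controls and at 35.7 to 40.8 CPM in NASH. With a log2 fold change of 0.01 and a confidence interval from −0.16 to 0.18 (adjusted p = 0.906 from edgeR) it stayed close to the bulk of genes. With library size alone its value was 0.49 (adjusted p = 0.000272 from edgeR), close to the shift of all genes. Another entry of the symbol, *ACAD9.1*, stands on another count row and was not taken as a member. *ACADSB*, the dehydrogenase for short branched chains in isoleucine breakdown, ranged from 304 to 1350 CPM in controls and from 349 to 835 CPM in NASH. The range of NASH lay inside that of the controls, and the log2 fold change of −0.33 had a confidence interval from −1.04 to 0.38 (adjusted p = 0.416 from edgeR). It was −0.04 without control animal 31, the highest, and −0.49 without control animal 45, the lowest.

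The mitochondrial trifunctional protein carries out the later steps for long chains, and matrix enzymes those for shorter chains. *HADHA*, its α subunit with the hydratase and dehydrogenase activities, was at 116 to 198 CPM in controls (median 169) and at 142 to 171 CPM in NASH (median 146). These ranges overlapped, with a log2 fold change of −0.14 and a confidence interval from −0.37 to 0.10 (adjusted p = 0.307 from edgeR). Without control animal 32, the lowest control, the value was −0.22 (adjusted p = 0.0262 from edgeR), and with library size alone it was 0.34 (adjusted p = 0.0116 from edgeR).

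*HADHB*, the β subunit with the thiolase activity, was at 174 to 277 CPM in controls (median 247) and at 142 to 193 CPM in NASH (median 174). It fell by 0.46 on the log2 scale (SE 0.12, adjusted p = 0.00438 from edgeR), with overlap through control animal 32, and its value with library size alone was 0.02 (adjusted p = 0.913 from edgeR). The ratio of *HADHB* to *HADHA*, which hardly depends on the scaling, was lower by 0.33 on the log2 scale in NASH (0.19 ± 0.14 against 0.52 ± 0.14 in controls, SD, n = 6 each, exact permutation test, adjusted p = 0.00952). The subunits of this complex thus differed in the size of their change.

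*ECHS1*, the short-chain enoyl-CoA hydratase, was at 707 to 984 CPM in controls (median 912) and at 340 to 444 CPM in NASH (median 394). It fell to 44.2% of the controls (log2 fold change −1.18, SE 0.10, adjusted p = 1e-06 from edgeR). *HADH*, the medium- and short-chain hydroxyacyl-CoA dehydrogenase, was at 342 to 508 CPM in controls (median 411) and at 150 to 235 CPM in NASH (median 199). It fell to 47.6% (log2 fold change −1.07, SE 0.12, adjusted p = 9.33e-06 from edgeR). *ACAA2*, the matrix thiolase, was at 731 to 848 CPM in controls and at 466 to 577 CPM in NASH, a fall of 0.66 (SE 0.08, adjusted p = 1.41e-05 from edgeR). In all 3 genes the groups were apart, where 15.3% of all genes were lower without overlap. Relative to *HADHA*, *HADH* was lower by 0.96 on the log2 scale (exact permutation test, adjusted p = 0.00595), without overlap.

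The enzymes that handle double bonds of unsaturated fatty acids had a median log2 fold change of −1.14, and all 3 of them fell by more than 2-fold and without overlap. Of all genes, 5.35% fell by more than 2-fold and 15.3% were lower without overlap. *ECI2*, an enoyl-CoA isomerase found in mitochondria and peroxisomes, was at 520 to 661 CPM in controls (median 548) and at 195 to 278 CPM in NASH (median 216). It fell to 40.4% of the controls (log2 fold change −1.31, SE 0.10, adjusted p = 4.01e-07 from edgeR). *ECI1*, the mitochondrial isomerase, was at 479 to 628 CPM in controls (median 493) and at 187 to 270 CPM in NASH (median 249), a level of 47.3% in NASH. *DECR1*, the 2,4-dienoyl-CoA reductase, was at 182 to 225 CPM in controls (median 205) and at 82.4 to 103 CPM in NASH (median 92.5), a level of 45.4%. Its adjusted p-value from edgeR was 1.9e-07. *ECI2* fell more than *ECI1*, with a log2 ratio lower by 0.23 in NASH (exact permutation test, adjusted p = 0.00595). This difference is small, and without control animal 45 its adjusted p-value was 0.0519 by the exact test.

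All 3 genes of the electron transfer chain of β-oxidation fell, without overlap between the groups. Of all genes, 26% were lower and 15.3% were lower without overlap. *ETFA* and *ETFB* encode the subunits of ETF, and *ETFDH* encodes the membrane enzyme that passes its electrons to ubiquinone. *ETFA* was at 335 to 468 CPM in controls (median 401) and at 193 to 251 CPM in NASH (median 234), a fall of 0.85 on the log2 scale (SE 0.10, adjusted p = 1.54e-05 from edgeR). *ETFB* was at 243 to 294 CPM in controls (median 248) and at 105 to 147 CPM in NASH (median 126), a fall of 1.01 (SE 0.08, adjusted p = 8.64e-07 from edgeR). The count row of *ETFB* carries *VSIG10L* as well, so the reads of these genes cannot be told apart.

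*ETFDH* was at 201 to 271 CPM in controls (median 224) and at 142 to 177 CPM in NASH (median 163). Its fall of 0.51 (SE 0.08, adjusted p = 0.000188 from edgeR) was the smaller one. Relative to *ETFA*, *ETFDH* was higher by 0.33 on the log2 scale in NASH (exact permutation test, adjusted p = 0.00595, without overlap), whereas the ratio of *ETFB* to *ETFA* differed by −0.17 with SDs of 0.21 and 0.22 (exact permutation test, adjusted p = 0.271). With library size alone *ETFDH* was at −0.04 (adjusted p = 0.703 from edgeR), and *ETFA* and *ETFB* were still lower, at −0.37 and −0.54.

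**Figure D4:**
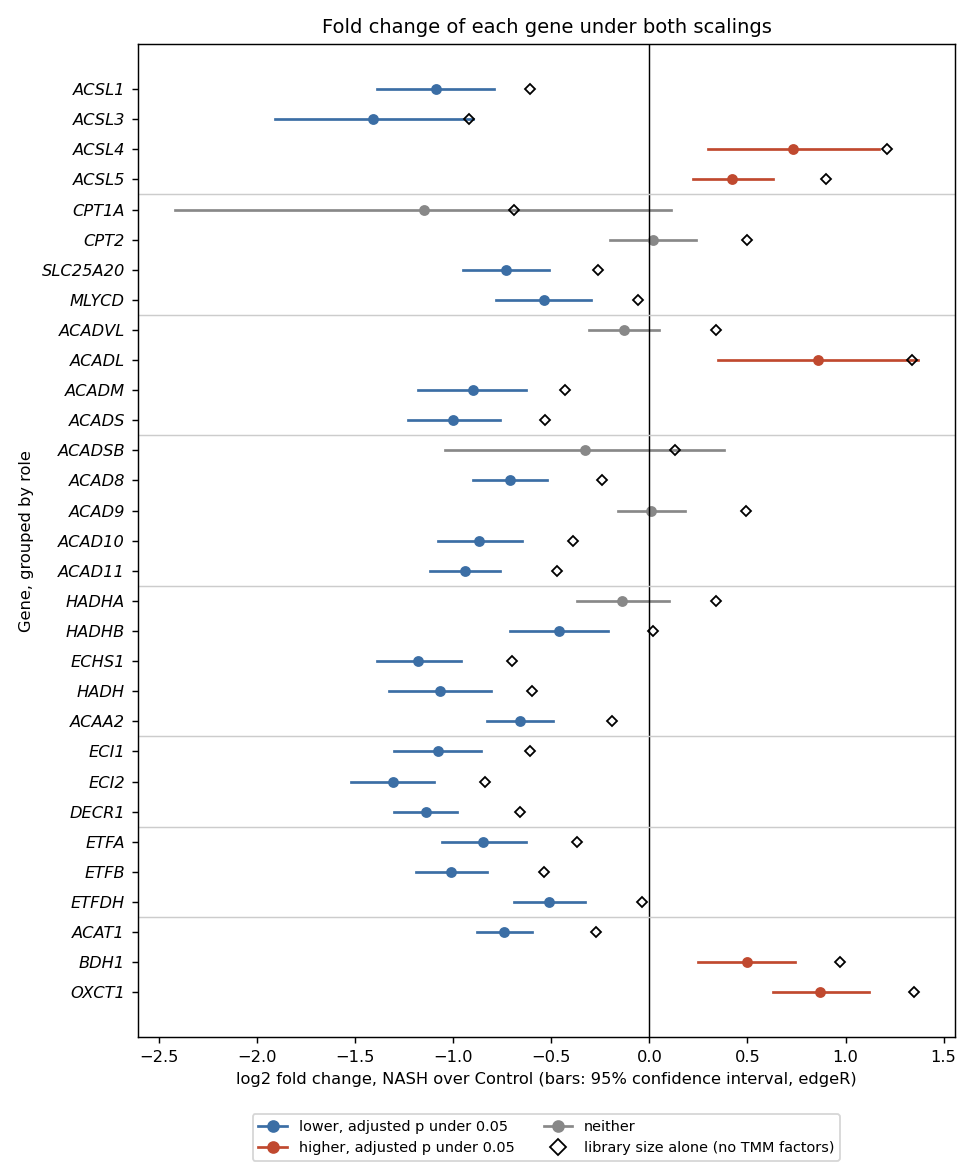
Log2 fold change of NASH over Control for each of the 31 genes, with TMM factors (filled points, bars for the 95% confidence interval from edgeR, blue for lower DEGs, red for higher DEGs, grey for neither) and with library size alone (open diamonds). The diamonds lie about the same distance to the right of every point, close to the 0.48 by which the median of all genes moved, and 17 of the 20 blue genes are still lower DEGs there.

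The ketone body genes went in both directions, with *ACAT1* lower and *BDH1* and *OXCT1* higher in NASH. *ACAT1*, the thiolase that joins and splits acetoacetyl-CoA, was at 373 to 421 CPM in controls (median 406) and at 225 to 275 CPM in NASH (median 236). It fell by 0.74 on the log2 scale (SE 0.07, adjusted p = 1.51e-06 from edgeR).

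*BDH1*, which interconverts acetoacetate and 3-hydroxybutyrate, was at 18 to 30 CPM in controls (median 23.2) and at 31.6 to 34.4 CPM in NASH (median 33.6). It rose by 0.50 on the log2 scale (SE 0.11, adjusted p = 0.0027 from edgeR), and the animals with NASH were close to each other, with an SD of 1.01 CPM against 4.71 CPM in controls. *OXCT1*, the transferase that activates acetoacetate for oxidation outside the liver, was at 7.03 to 11.6 CPM in controls (median 8.35) and at 14.5 to 16.9 CPM in NASH (median 15.7). It rose 1.83-fold (log2 fold change 0.87, SE 0.11, adjusted p = 3.46e-05 from edgeR), and both groups were apart in each gene. The markers of cholangiocytes and stellate cells given above rose in the same animals. Whether that moves *OXCT1* or *ACADL* was not tested.

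Relative to *BDH1*, *ACAT1* fell to 0.417 of its ratio in controls (log2 ratio 2.85 ± 0.08 against 4.11 ± 0.25, SD, n = 6 each, exact permutation test, adjusted p = 0.00595). The ratio of *OXCT1* to *BDH1* differed by 0.36, with an SD of 0.48 in controls (exact permutation test, adjusted p = 0.184), and by 0.53 without control animal 56, the control with the most *OXCT1* (adjusted p = 0.0068 by the exact test). Of 5 further ketone body genes tested, 1 fell and 1 rose, shares of 20% each that are near the 26% lower and 27.9% higher of all genes. *BDH2* fell by 0.46 (adjusted p = 0.00623 from edgeR) but was not lower past the threshold with library size alone, and *SLC16A6*, a carrier linked to the release of ketone bodies from hepatocytes, was at 1.69 to 2.85 CPM in controls and at 5.64 to 11.4 CPM in NASH, 3.62-fold higher (adjusted p = 1.13e-05 from edgeR). NASH animals 41 and 65 were the highest in *SLC16A6*, at 11.4 and 9.42 CPM. The other animals with NASH lay between 5.64 and 6.86 CPM. *SLC16A1*, *SLC16A7* and *OXCT2* had log2 fold changes of −0.06, −0.03 and −0.42 and did not pass the threshold.

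**Figure D5:**
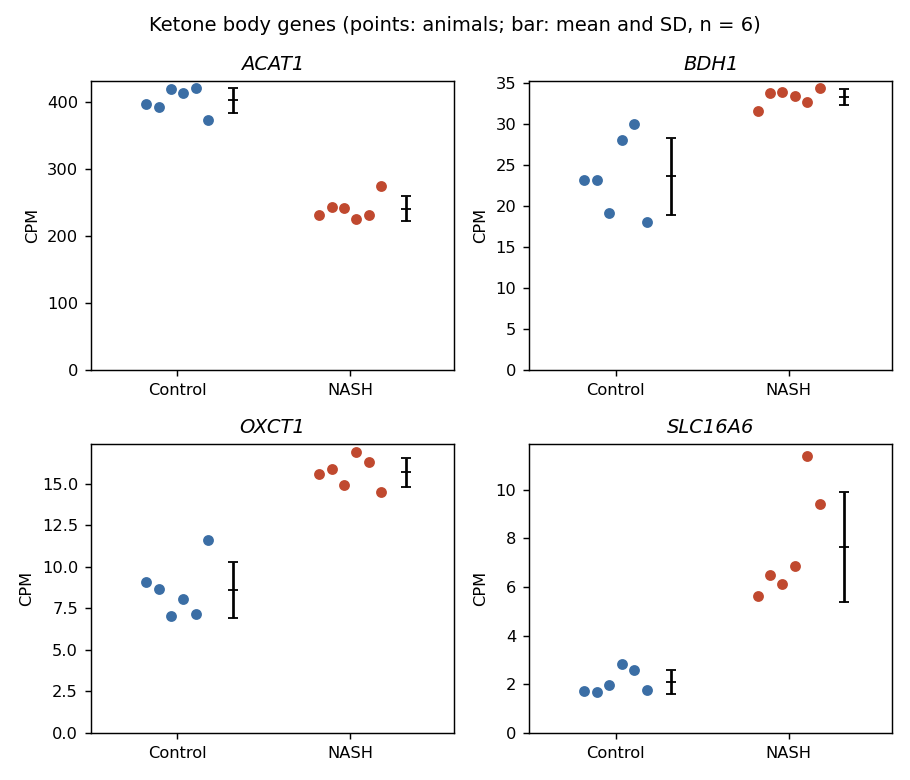
CPM of the ketone body genes *ACAT1*, *BDH1*, *OXCT1* and *SLC16A6* in each animal (points, 6 controls and 6 NASH), with the mean and SD of each group as a bar and axes starting at 0. The groups are apart in each panel, lower in NASH for *ACAT1* and higher for the other 3 genes.

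Within a group, the 31 genes had a median CV of 12.8% in controls and 11.8% in NASH. The values over all genes, not matched for level, were 15.8% and 13%. Of the 31 genes, only *CPT1A* and *ACADSB* had a CV over that of *ACADL* (45.1%) in controls. Averaged over all 31 genes, the log2 difference from the mean of the controls ranged from −0.68 (animal 20) to −0.40 (animal 9) in NASH and from −0.12 to 0.08 in controls. NASH animal 20 had the lowest level of its group in *ACSL1*, *CPT1A*, *MLYCD*, *ACADS*, *HADH*, *ECI1*, *ECI2*, *ETFB* and *ETFDH* among others. Between 19 and 22 of the 31 genes were below every control in any animal with NASH.

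Genes around the pathway were described from further lists. Of 22 genes that handle carnitine and acyl-CoA elsewhere, 20 were tested. Their median log2 fold change was −0.67, and 15 fell while 3 rose, where 26% of all genes were lower and 27.9% higher. By library size alone 6 were lower and 3 higher, where 7.66% of all genes were lower and 63.9% higher. *ACSM5*, a medium-chain acyl-CoA synthetase, had the lowest fitted log2 fold change of those that fell, −1.45 (SE 0.39, adjusted p = 0.00683 from edgeR), but varied in NASH, at 11.4 to 85.1 CPM (median 70.3) against 141 to 184 CPM in controls (median 149). *ACSS1*, a mitochondrial acetyl-CoA synthetase, had the highest fitted value, but lay at 0 to 0.605 CPM in controls and at 0.983 to 2.5 CPM in NASH. *CPT1B* and *CPT1C*, the muscle and brain forms of *CPT1A*, were among the 15. *CPT1C* fell by 0.50 (adjusted p = 0.00213 from edgeR), and *CPT1B* fell by 0.68 (adjusted p = 0.000364 from edgeR), on a count row shared by 5 symbols. None of the listed adipocyte and muscle markers was among the genes tested. *ACOT1* and *ACOT2* share a count row and are therefore the same measurement counted for each symbol.

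Among the regulators of fatty acid oxidation, 23 of 27 were found and 8 fell while 3 rose (median log2 fold change −0.07). These shares, 34.8% and 13%, compare with 26% lower and 27.9% higher over all genes, and with library size alone 2 regulators were lower and 11 higher, where 7.66% of all genes were lower and 63.9% higher. *PPARA*, the nuclear receptor that drives these genes in liver, was at 26.2 to 139 CPM in controls and at 96.5 to 146 CPM in NASH, with a log2 fold change of 0.16 and a confidence interval from −0.48 to 0.81 (adjusted p = 0.665 from edgeR). Its partner *RXRA* fell by 1.03 (adjusted p = 0.000465 from edgeR). *KLF15* (−1.09), *CREB3L3* (−0.92), *PDK4* (−0.61), *SIRT5* (−0.44), *ESRRA* (−0.43), *PRKAA1* (−0.38) and *TFAM* (−0.24) were the other genes that were lower. *PPARD* (0.58), *NR1H4* (0.52) and *LPIN1* (0.25) were higher. *FGF21* (0.54) and *ANGPTL4* (−0.60), targets of PPARα, did not pass the threshold, nor did *PPARGC1A*, *PPARGC1B*, *SIRT1*, *SIRT3*, *PRKAA2*, *STK11*, *ACACA*, *RXRB* and *NRF1*, whose values lay between −0.22 and 0.14.

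In the list of branched- and short-chain acyl-CoA breakdown, 14 of the 20 genes found fell and none rose (median log2 fold change −0.61), and *HIBADH* of valine breakdown fell most, by 1.11 (adjusted p = 1.15e-06 from edgeR). *HSD17B10* had the smallest fall there, 0.25 (adjusted p = 0.041 from edgeR). In the list of peroxisomal β-oxidation, 9 of the 12 found fell and none rose (median −1.18), and *PECR*, the peroxisomal enoyl-CoA reductase, fell by 1.93 (adjusted p = 1.21e-07 from edgeR). *ACOX2* had the smallest fall of the 9, 0.87 (adjusted p = 1.81e-05 from edgeR). Of the genes for mitochondrial membranes, import and chaperones, 5 of 16 fell and none rose (median −0.15), a share of 31.2% lower that is near the 26% of all genes. In this list 1 gene was lower and 12 were higher with library size alone, where 7.66% of all genes were lower and 63.9% higher. *TIMM23*, whose count row is shared by 2 symbols, fell most, by 0.88 (adjusted p = 1.55e-05 from edgeR), and *HSPA9* least, by 0.23 (adjusted p = 0.0179 from edgeR). The branched- and short-chain list, with library size alone, had 8 lower and 2 higher genes and the peroxisomal list 9 and 2. Over all these further lists 26 genes were then lower and 32 higher (7.66% and 63.9% of all genes), against 52 lower and 7 higher with TMM (26% and 27.9% of all genes).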

How the data were processed

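Liver RNA of 12 guinea pigs was sequenced from stranded mRNA libraries with single reads. Per the submitters' processing notes and the study's methods, reads were trimmed (Trimmomatic 0.38.0), aligned to Cavpor3.0 without multimapped reads (HISAT2 2.1.0) and counted (StringTie 1.3.6). The authors deposited raw counts of 39061 rows without symbols, and the authors deposited regularised log2 values (rlog, DESeq2) of 11896 human orthologue symbols, limited to genes with at least 200 counts in total. No column of the authors' own comparisons was used.

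To pair symbols with count rows, the rlog values were computed anew (DESeq2 1.42.0) and matched, with a largest difference of 8.35e-07 from the deposited values. The 11896 symbols stand on 11031 rows, and 1515 symbols share a row with another. Counts were tested with edgeR 4.0.16 (R 4.3.3, TMM factors, robust quasi-likelihood fit of NASH against Control, Benjamini–Hochberg adjustment over 11896 symbols). CPM values use TMM-scaled library sizes, and log2 CPM values, used for the ratios, a prior count of 2. Ratios between 2 genes were tested with two-sided exact permutation tests and adjusted over 22 pairs. The scripts were tested on simulated data. CPM is not per length, so levels of different genes are not compared.

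The genes and lists were chosen with earlier results of these data known. Named were all 31 genes, all genes found of the lists of ketone body genes and regulators, and of each other list the genes with the highest and lowest fold change past the threshold. *CPT1B*, *CPT1C* and genes with values singled out between animals were named after their values were seen. Alternatives covered the scaling, the tool, the filter, the threshold and leaving out each animal. Read depth was at least 16980274 counts per animal. Each library is 1 animal, and the labels name no batch. Genome positions and sequences were not used here. Some genes of ketone body metabolism are not reported here.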

Additional observations from a re-analysis of the deposited data

Results flagged for a closer look

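In 8 of 62 groups of 6 values checked (31 genes in NASH and Control), the highest or lowest animal stood apart from the others by Dixon's test at the 95% level, where chance alone gives about 1 in 20. Control animal 31 stood above the other controls in 3 genes, at 628 CPM in *ECI1* (next 520), 661 CPM in *ECI2* (next 551) and 294 CPM in *ETFB* (next 251). NASH animal 65 stood above the other animals with NASH in *ACAD11* at 116 CPM (next 89.6) and in *ACAT1* at 275 CPM (next 243). NASH animal 20 was the lowest in *ECI1* at 187 CPM (next 240). Control animal 56 was the lowest control in *ACAA2* at 731 CPM (next 804), and control animal 10 the highest in *ACADL* at 11.3 CPM (next 6.13). Each of these 7 genes was called in the same direction with that animal left out.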

How the results depend on the processing

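The counts of 20 lower and 5 higher genes were the same with RLE factors, upper-quartile factors, DESeq2, limma-voom, limma on the rlog values, a threshold of 0.01, filterByExpr, all count rows above 0, and each count row fitted once. Over all genes, these settings gave between 18.8% (all count rows above 0) and 27.3% (DESeq2) lower. They gave between 21.5% (threshold of 0.01) and 31.9% (upper-quartile factors) higher. With each animal left out, 20 to 21 genes were lower, 5 were higher, and 10 to 12 of the 22 ratios differed. Over all genes, 24.3% to 25.8% were then lower and 26.3% to 27.7% higher. With library size alone, 9 of the 31 genes were higher, *ACADVL* (0.34), *ACADSB* (0.13), *HADHA* (0.34) and *HADHB* (0.02) changed sign, and of the further lists 26 genes were lower and 32 higher. Over all genes that setting gave 911 lower and 7603 higher, against 3093 and 3318. When edgeR tested for a change beyond 0.5 on the log2 scale, 17 of the 31 genes were lower and 1 higher (960 and 1704 over all genes), a stricter question by construction. Values near 0 also changed sign in *ACAD9* without Control animal 10 (−0.02), Control animal 56 (−0.02), NASH animal 2 (−0.01) or NASH animal 9 (−0.01), and in *CPT2* without Control animal 56 (−0.04), NASH animal 41 (−0.04) or NASH animals 41 and 65 together (−0.05). With each animal left out, *ACAD9* lay between −0.02 and 0.05 and *CPT2* between −0.04 and 0.08. The cause of the sign changes was not tested. The study assigned animals in blocks by body weight, but the labels give neither blocks nor pairs. No paired or blocked analysis was therefore made. Depth was low for *ACADL*, with 59 to 446 counts per animal.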

Other observations

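Some genes of lipid oxidation had single animals apart from the others of their group. These genes were picked after their values were seen, and only the values are given. *EHHADH*, the peroxisomal bifunctional enzyme, was at 615 CPM in control animal 32, at 513 CPM in NASH animal 2 and at 518 CPM in NASH animal 65, and between 76.4 and 119 CPM in the other 9 animals. *CPT1A* was high in other animals, controls 31 and 45 and NASH animals 9 and 41. *ACADSB* was at 1350 CPM in control animal 31 and between 304 and 737 CPM in the other controls, and in NASH it was at 835 CPM in animal 9, 824 CPM in animal 65 and between 349 and 549 CPM in the others. *PPARA* was at 26.2 CPM in control animal 5 and between 96.5 and 146 CPM in the other 11 animals.

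Among the acyl-CoA handling genes that rose, *ACOT9*, a mitochondrial acyl-CoA thioesterase, had a log2 fold change of 2.27 (adjusted p = 7.68e-08 from edgeR), and *ACSM3*, a medium-chain acyl-CoA synthetase, one of 1.98 (adjusted p = 0.00013 from edgeR). Both were named after their values were seen.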
